A study of Mus musculus with 41 samples.

Results

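The hippocampus was compared with the cortex of young SAMR1 mice, the strain that ages normally and serves as the control for the senescence-prone SAMP8 strain. The libraries were taken by their labels, as those of SAMR1 hippocampus or cortex from mice aged 2.5 months, which were 8 of the 41 libraries in the series. Of these, 4 were from hippocampus and 4 from cortex, and they came from 6 male mice, since 2 mice gave both regions. No transgene or treatment is named for these mice, and all were perfused with saline under anaesthesia before dissection. The paper describes memory and motor tests and then brain MRI under isoflurane at each age, before the tissue was collected. Each region was dissected from a single hemisphere and its total RNA, depleted of ribosomal RNA, was sequenced as bulk tissue. Replicates 1 to 4 are called hippocampus 1 to 4 and cortex 1 to 4 below. Cortex 1 and hippocampus 1 shared a mouse, as did cortex 3 and hippocampus 2.

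The hippocampus is built from the granule neurons of the dentate gyrus and the pyramidal neurons of the fields CA1, CA2 and CA3, joined in a chain of excitatory synapses that is known for its part in forming memories. The neocortex is built in layers, with neurons of the upper layers projecting within the cortex and neurons of the deep layers projecting to thalamus and brainstem. Each region borders other tissue that a dissection can take along: the striatum and the meninges lie against the cortex, and the choroid plexus and the ciliated ependyma of the lateral ventricle lie against the hippocampus.

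Total counts ranged from 500986 in cortex 4 to 22342090 in cortex 3, and from 2629131 to 16066994 in the hippocampus libraries. Cortex 4 was by far the shallowest, and 3 counts in it correspond to 5.99 CPM (counts scaled to a common library depth), so genes near or below that level were not measurable there. Most low counts were even (92.5% of the values from 1 to 20 in cortex 4), and if 1 fragment gave 2 counts, 3 fragments would be 6 counts or 12 CPM in this library. Mitochondrial genes held 3.29 ± 0.442% of the counts in hippocampus and 3.76 ± 1.32% in cortex (SD, n = 4 each, two-sided exact permutation p = 0.686, where 0.0286 is the smallest p that 4 against 4 allows). Levels below are CPM with trimmed-mean (TMM) scaling, which does not account for gene length, so they are compared between libraries and not between genes. A gene was called when its adjusted p was at most 0.1 and its fold change at least 1 on the log2 scale, using the quasi-likelihood test of edgeR with Benjamini-Hochberg adjustment. The test compared these 8 libraries, and its p-values measure the spread between them. It treated the libraries as independent, although 2 mice gave both regions.

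Of 15390 genes tested, 344 were called, 177 higher and 167 lower in hippocampus. These were 1.15% and 1.09% of all genes tested, and the median log2 fold change over all genes was 0.0053. In 151 of the genes called higher every hippocampus library lay above every cortex library, and in 103 of the genes called lower every hippocampus library lay below; over all genes tested, such separation was seen in 4.15% and 3.01%. In 77 of the 103 genes cortex 4 was above the level of its 3 counts, and in 97 of the 151 the lowest hippocampus library was above that level. Of 339 tested genes on 28 lists of neuron types, neighbouring tissues, other cell types and receptor families, 72 were called, and the lists are described in turn. Gene positions are those of GENCODE M21 on GRCm38.

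Genes of dentate gyrus granule neurons were the first group of hippocampal neuron genes. Of 16 tested members of this list, 4 were called higher, none was called lower, and the median log2 fold change was 0.71. Prox1 (ENSMUSG00000010175, chromosome 1, 190118035 to 190170714, minus strand), the homeobox transcription factor that sets granule neuron identity, stood at 32.2, 14.4, 26.3 and 27 CPM in cortex 1 to 4 and at 74.3, 54.5, 83.9 and 79.4 CPM in hippocampus 1 to 4. The 2 sets of values did not overlap, and Prox1 was higher in hippocampus by 1.58 ± 0.25 (log2 fold change ± SE, adjusted p = 0.00547, edgeR). Dsp, which encodes the desmosomal protein desmoplakin and marks granule neurons in the brain, stood at 5.45, 4.91, 1.69 and 7.70 CPM in cortex and 25.6, 31.1, 30.1 and 36.5 CPM in hippocampus, a difference of 2.93 ± 0.37 (adjusted p = 0.0019, edgeR). Lct, the gene of the disaccharidase lactase, was at 1.98, 0.205, 2.26 and 3.85 CPM in cortex and 13.5, 20.5, 19.2 and 28.6 CPM in hippocampus, a difference of 3.77 ± 0.58 (adjusted p = 0.00468, edgeR). For Dsp and Lct too, every hippocampus library was above every cortex library. Among members that were not called, C1ql2, a secreted synaptic organizer, differed by 1.30 (adjusted p = 0.204), while Pdzd2 lay the other way at −0.94 with an adjusted p of 0.00678 and a fold just under the threshold.

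CA1 pyramidal neuron genes showed the highest median of the neuron lists. Of 9 tested members all had a fold change above 0, 5 were called higher and the median was 1.10. Fibcd1 (ENSMUSG00000026841, chromosome 2, 31813290 to 31846005, minus strand), a membrane receptor for acetylated sugars used as a CA1 marker, stood at 4.46, 9.41, 5.27 and 3.85 CPM in cortex 1 to 4 and 45.3, 88.1, 35.6 and 75.5 CPM in hippocampus 1 to 4. Its lowest hippocampus value was well above its highest cortex value, with a difference of 3.25 ± 0.35 on the log2 scale (adjusted p = 0.000603, edgeR). Gpr161, an orphan receptor that acts at the primary cilium, stood at 10.4, 16.9, 8.04 and 3.85 CPM in cortex and 40.2, 69.8, 43.8 and 80.2 CPM in hippocampus (2.38 ± 0.33, adjusted p = 0.00268). Man1a, a mannosidase of the Golgi, was at 51.5, 47, 55.4 and 73.2 CPM in cortex and 105, 131, 89.7 and 146 CPM in hippocampus (1.10 ± 0.20, adjusted p = 0.0115), without overlap. Its fold dropped to 0.99, under the threshold, when hippocampus 4 was left out, with an adjusted p of 0.0218. Lefty1, a secreted antagonist of Nodal, rose from 0.495, 0, 0.188 and 0 CPM in cortex to 4.19, 5.43, 2.74 and 2.38 CPM in hippocampus (adjusted p = 0.00891), and with cortex counts at or near 0 its fold change depends on the prior count. Pou3f1, a POU-domain transcription factor, stood at 12.9, 12.2, 25.5 and 11.6 CPM in cortex and 47.5, 50.7, 20.2 and 48.5 CPM in hippocampus, with hippocampus 3 inside the cortex range. It was called at 1.35 ± 0.33 (adjusted p = 0.0527) and was not called without cortex 1, cortex 2, hippocampus 1 or hippocampus 2 (adjusted p 0.139 to 0.183). Without hippocampus 1 or hippocampus 2, 3 CA1 genes were called in place of 5. Wfs1, a CA1 marker that cortical neurons also express, did not separate the regions, at 220.4, 177, 152 and 100.2 CPM in cortex and 167, 219, 182 and 189 CPM in hippocampus (0.19 ± 0.20, adjusted p = 0.873).

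Promoters of 4 region genes are shown because these genes were among the hippocampal and cortical list members with the smallest p, and all 4 were called with any single library left out. Each runs from 250 bases before to 50 bases after a transcription start in RefSeq (GRCm38.p6), written 5′ to 3′ in the direction of the gene. Capitals mark the letters CAGATG (or CATCTG on the other strand), the E-box bound by NeuroD factors, and CCAAT (or ATTGG), the CAAT box. Of 32851 promoters in the RefSeq table, 17.2% held the E-box and 37.4% the CAAT box on either strand, and the 2 motifs did not overlap here.
Fibcd1 (chr2:31845956-31846255, minus strand): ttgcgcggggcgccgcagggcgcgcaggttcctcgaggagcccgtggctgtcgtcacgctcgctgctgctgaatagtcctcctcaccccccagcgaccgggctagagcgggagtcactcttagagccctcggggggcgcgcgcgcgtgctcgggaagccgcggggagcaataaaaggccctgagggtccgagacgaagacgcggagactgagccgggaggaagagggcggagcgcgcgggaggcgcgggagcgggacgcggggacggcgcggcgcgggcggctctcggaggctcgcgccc
Gpr161 (chr1:165295516-165295815, plus strand): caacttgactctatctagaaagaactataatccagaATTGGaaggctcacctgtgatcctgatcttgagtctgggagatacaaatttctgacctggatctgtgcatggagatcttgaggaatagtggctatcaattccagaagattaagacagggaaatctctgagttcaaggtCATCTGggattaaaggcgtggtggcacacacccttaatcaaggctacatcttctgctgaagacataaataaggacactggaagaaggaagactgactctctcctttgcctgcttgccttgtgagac
Hsd11b1 (chr1:193242311-193242610, minus strand): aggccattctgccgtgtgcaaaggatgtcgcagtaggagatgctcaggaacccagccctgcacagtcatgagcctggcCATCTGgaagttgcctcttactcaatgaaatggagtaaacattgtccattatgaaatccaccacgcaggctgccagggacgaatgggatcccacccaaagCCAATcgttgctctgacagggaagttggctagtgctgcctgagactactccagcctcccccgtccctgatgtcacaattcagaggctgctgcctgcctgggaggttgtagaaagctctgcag
Stard8 (chrX:99042331-99042630, plus strand): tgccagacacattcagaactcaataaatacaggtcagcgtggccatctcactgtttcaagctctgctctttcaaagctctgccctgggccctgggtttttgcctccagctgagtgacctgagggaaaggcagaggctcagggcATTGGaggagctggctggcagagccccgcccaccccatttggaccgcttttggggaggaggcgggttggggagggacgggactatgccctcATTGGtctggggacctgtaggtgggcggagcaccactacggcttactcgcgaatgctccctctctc
Gpr161 and Hsd11b1, both higher in hippocampus, each held 1 E-box and 1 CAAT box. Stard8, lower in hippocampus, held 2 CAAT boxes and no E-box, and the window of Fibcd1 held neither and consisted of 74.3% G and C, against a median of 52.7% over all promoters. The cyclic AMP response element TGACGTCA, the steroid receptor half-site AGAACA and the TATA box TATAAA, searched on both strands, were in none of these 4 windows, and are in 1.79%, 19% and 13.6% of all promoters. Gpr161 has 2 starts in the table, of which the first listed is shown. The windows of Dsp and Syt6 held none of the 5 motifs.

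Genes of CA2, CA3 and newborn neurons were mostly not called. None of 7 tested CA2 members was called, with a median of 0.78. Rgs14, a regulator of G-protein signalling that restrains plasticity in CA2, came closest with 41.4, 25.8, 40.9 and 30.8 CPM in cortex and 70.7, 65.6, 51 and 51.6 CPM in hippocampus (0.78 ± 0.21, adjusted p = 0.0827, under the fold threshold). Among 7 tested CA3 members none was called higher, the median was 0.50, and the kainate receptor subunit Grik4 differed by 0.72 ± 0.28 (adjusted p = 0.309). Coch, an extracellular protein known from the inner ear, was the single CA3 list member called and was lower in hippocampus, at 36.4, 15.6, 23.1 and 19.3 CPM in cortex against 9.52, 7.39, 4.11 and 3.58 CPM (−1.84 ± 0.35, adjusted p = 0.0165), without overlap. Of 13 tested genes of adult-born neurons and progenitors, 1 was called, and the median was −0.36. The called gene was Hopx, a homeodomain protein of quiescent neural stem cells and astrocytes (1.27 ± 0.33, adjusted p = 0.0736), and it was not called without cortex 1, cortex 2 or hippocampus 1, 2 or 3 (adjusted p 0.139 to 0.206). Dcx, the microtubule protein of immature neurons, was at 27.2, 79.4, 43 and 50.1 CPM in cortex and 34.9, 21.5, 28.8 and 29.8 CPM in hippocampus (−0.81 ± 0.29, adjusted p = 0.25), with the highest value in cortex 2.

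**Figure D1:**
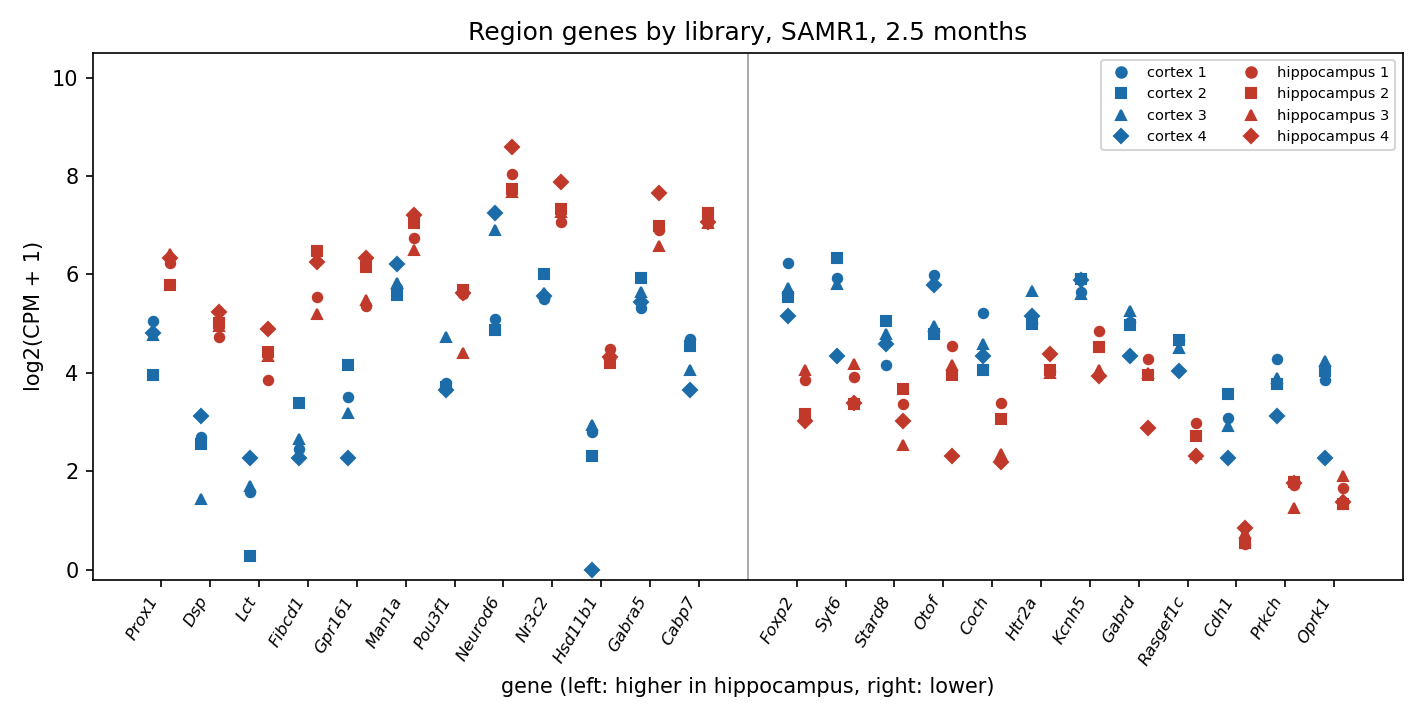
Level of 24 genes in each library as log2(CPM + 1), with cortex in blue and hippocampus in red and 1 symbol per replicate number. Genes called higher in hippocampus are on the left and genes called lower on the right. Prox1 and Cabp7 separated the regions in every library, while for Pou3f1 hippocampus 3 lay inside the cortex range, and Hsd11b1 was at 0 in cortex 4.

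Cortical neuron genes differed between the regions in a few members. Of 12 tested genes of upper-layer neurons 2 were called lower in hippocampus, of 18 of deep-layer neurons 2 were called lower and 1 higher, and of 10 general neocortical projection neuron genes 1 was called higher and none lower. The medians of these lists were −0.48, 0.19 and −0.18. In the upper-layer list Cux1 (−0.70), Lamp5 (−0.87) and Rasgrf2 (−0.69) were lower in hippocampus but under the fold threshold. Of its 12 members, 4 had a fold change above 0. Foxp2 (ENSMUSG00000029563, chromosome 6, 14901349 to 15441977, plus strand), the forkhead transcription factor of layer 6 corticothalamic neurons that striatal neurons also express, stood at 74.3, 45.4, 51.7 and 34.7 CPM in cortex 1 to 4 and 13.5, 8.0, 15.8 and 7.15 CPM in hippocampus 1 to 4 (−2.25 ± 0.29, adjusted p = 0.00239, edgeR). Syt6, a synaptotagmin of layer 6, stood at 59.9, 79.3, 55.2 and 19.3 CPM in cortex and 14.1, 9.28, 17.1 and 9.53 CPM in hippocampus (−2.19 ± 0.32, adjusted p = 0.00342). For both genes all hippocampus values lay below all cortex values, and cortex 4 was the lowest of the cortex libraries. Stard8, a lipid-binding protein with a GTPase-activating domain, was at 16.8, 32.2, 26.7 and 23.1 CPM in cortex and 9.27, 11.8, 4.79 and 7.15 CPM in hippocampus (−1.54 ± 0.30, adjusted p = 0.0174), again without overlap. Otof, the calcium sensor otoferlin, was the other upper-layer gene called (−1.47 ± 0.40, adjusted p = 0.0857), and the call was lost without cortex 1, 3 or 4 or hippocampus 2 or 3 (adjusted p 0.103 to 0.283).

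Most layer markers that are used to tell cortex apart did not separate these libraries gene by gene. Every hippocampus library lay below every cortex library in 4 of 12 upper-layer and 2 of 18 deep-layer genes (3.01% of all genes tested). The reverse held in 0 and 3 of them (4.15% of all). The list sums did separate the regions, in opposite directions. The upper-layer sum was 803.5 to 1090 CPM in cortex and 526.7 to 696.3 CPM in hippocampus. The deep-layer sum was 620.2 to 793.6 CPM in cortex and 817 to 1002 CPM in hippocampus. Cux2, the homeobox gene of layers 2 to 4, stood at 79.8, 95.6, 122 and 216 CPM in cortex and 102, 115, 109 and 55.6 CPM in hippocampus (−0.36 ± 0.29, adjusted p = 0.798), and Rorb, the nuclear receptor of layer 4, differed by −0.18 ± 0.19 (adjusted p = 0.873). Fezf2, the selector gene of corticospinal neurons, went from 1.98, 10.3, 38.8 and 34.7 CPM in cortex to 53.2, 72, 52.4 and 64.3 CPM in hippocampus, the opposite direction, and did not pass the test (1.61 ± 0.55, adjusted p = 0.207). Neurod6, a basic helix-loop-helix factor shared by pyramidal neurons of both regions, stood at 33.2, 28.4, 118 and 150.2 CPM in cortex, low in cortex 1 and 2 and high in cortex 3 and 4, and at 262, 214, 202 and 382 CPM in hippocampus. It was called higher in hippocampus (1.79 ± 0.45, adjusted p = 0.0623) and lost the call without cortex 1, cortex 2, hippocampus 1 or hippocampus 4 (adjusted p 0.131 to 0.149). None of 19 tested interneuron genes was called, with a median of −0.47; Npy, the neuropeptide, came closest at −0.79 ± 0.22 (adjusted p = 0.0934), under the fold threshold. In bulk tissue, fewer cells of a type and less RNA per cell cannot be told apart.

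Receptors and channels of neurons gave single members rather than whole families. Of 8 tested genes of corticosteroid signalling 2 were called, both higher. Nr3c2 (ENSMUSG00000031618, chromosome 8, 76899442 to 77245012, plus strand), the mineralocorticoid receptor, for which the hippocampus is the classical brain site, stood at 44.3, 63, 48.3 and 46.2 CPM in cortex 1 to 4 and 132, 160.5, 153 and 234 CPM in hippocampus 1 to 4 (1.73 ± 0.21, adjusted p = 0.00148, edgeR). Hsd11b1, the enzyme that regenerates active glucocorticoid, stood at 5.94, 3.99, 6.72 and 0 CPM in cortex and 21.5, 17.4, 19.9 and 19.1 CPM in hippocampus (1.92 ± 0.34, adjusted p = 0.0104); it is also on the deep-layer list and is the 1 member of that list called higher. Both genes were separated without overlap and both were called with any library left out. Nr3c1, the glucocorticoid receptor, differed by 0.14 ± 0.18 (adjusted p = 0.913).

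Of 12 tested GABA-A receptor subunits, Gabra5, the subunit of extrasynaptic receptors on hippocampal pyramidal neurons, was called higher, at 38.9, 60.2, 48.7 and 42.4 CPM in cortex and 118, 125, 95.2 and 199 CPM in hippocampus (1.47 ± 0.23, adjusted p = 0.00544). Gabrd, the delta subunit, was called lower (−1.15 ± 0.28, adjusted p = 0.0594), a call that was lost without any 1 of 6 libraries, all but cortex 4 and hippocampus 1 (adjusted p 0.0635 to 0.193, with folds from −0.96 to −1.18). None of 17 ionotropic glutamate receptor subunits was called, but Gria1, an AMPA receptor subunit, lay at 428, 584, 476 and 424 CPM in cortex and 796, 864, 793 and 971 CPM in hippocampus without overlap (0.84 ± 0.16, adjusted p = 0.0172, below the fold threshold). Htr2a, the serotonin 2A receptor, known for its high level in cortex, was the 1 of 11 serotonin receptors called, at 31.2, 30.9, 49.6 and 34.7 CPM in cortex and 15.5, 15.8, 15.1 and 19.9 CPM in hippocampus (−1.17 ± 0.22, adjusted p = 0.0169); without cortex 3 its fold was −0.95. Kcnh5, a voltage-gated potassium channel of the ether-a-go-go family, was the 1 of 18 potassium channel genes called, at 49.3, 59.3, 47.3 and 57.8 CPM in cortex and 27.7, 22, 15.8 and 14.3 CPM in hippocampus (−1.37 ± 0.23, adjusted p = 0.00728). Single members were also called among 7 metabotropic glutamate receptors (Grm4, −1.13), 18 Eph receptors and ephrins (Epha4, 1.01) and 18 immediate early genes (Nr4a3, 1.59). Grm4 and Epha4 each lost the call without 4 of the libraries, and Nr4a3 without 3: cortex 2 and hippocampus 2, 3 and 4 for Grm4 (adjusted p 0.0927 to 0.196, folds from −0.89), cortex 1 and 2 and hippocampus 1 and 4 for Epha4 (adjusted p 0.0964 to 0.141, folds from 0.85), and cortex 1 and 2 and hippocampus 1 for Nr4a3 (adjusted p 0.103 to 0.183). Each of these is 1 gene of its family, and with 1.15% of all genes called higher and 1.09% lower, nothing is read from single calls about a family.

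The 3 genes with the smallest p of all were on no list. Cabp7 (ENSMUSG00000009075, chromosome 11, 4736892 to 4746778, minus strand), a calcium-binding protein related to calmodulin, stood at 24.8, 22.4, 15.7 and 11.6 CPM in cortex 1 to 4 and 131, 150.1, 132 and 133 CPM in hippocampus 1 to 4 (2.79 ± 0.20, adjusted p = 3.74e-05, edgeR). The predicted gene Gm2115 was at 10.9, 12.4, 13.3 and 11.6 CPM in cortex and 151, 178, 107 and 318 CPM in hippocampus (3.94 ± 0.31, adjusted p = 5.14e-05), and Olfml2b, an olfactomedin-like extracellular protein, at 2.97, 3.99, 3.43 and 0 CPM and 31.5, 24.9, 39.7 and 38.1 CPM (3.29 ± 0.31, adjusted p = 0.00025). In all 3 the lowest hippocampus library was far above the highest cortex library. Il16, a cytokine precursor with a neuronal form, was called at 2.94 ± 0.30, Shisa6, an auxiliary subunit of AMPA receptors, at 2.57 ± 0.33, Cpne6, a calcium-dependent phospholipid-binding protein of neurons, at 1.36 ± 0.18, and Kit, the receptor tyrosine kinase for stem cell factor, at 1.21 ± 0.16 (adjusted p 0.000448, 0.00239, 0.00267 and 0.00268). These 7 genes and Dnah9, a dynein of motile cilia at 2.98 ± 0.29, were the 8 called higher with the smallest p outside the lists.

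In the other direction the 8 genes outside the lists with the smallest p were Abi3bp, Cdh1, Prkch, Rasgef1c, Fmod, Slc22a6, Oprk1 and Lhx8. Cdh1, the epithelial cadherin, stood at 7.43, 10.9, 6.54 and 3.85 CPM in cortex and 0.445, 0.453, 0.685 and 0.794 CPM in hippocampus (−3.87 ± 0.48, adjusted p = 0.0018). Prkch, a protein kinase C isoform, stood at 18.3, 12.7, 13.9 and 7.70 CPM in cortex and 2.29, 2.41, 1.37 and 2.38 CPM in hippocampus (−2.66 ± 0.35, adjusted p = 0.00239), and Rasgef1c, an exchange factor for Ras-like proteins, at 24.3, 24.5, 21.7 and 15.4 CPM and 6.92, 5.58, 4.11 and 3.97 CPM (−2.04 ± 0.27, adjusted p = 0.00256). In all 8 every cortex library was above every hippocampus library, but for Cdh1, Slc22a6, Oprk1 and Lhx8 the lowest was cortex 4 at 3.85 CPM, or 2 counts, too few to be told from a lower level. Abi3bp (−2.90) and Fmod (−2.78) encode extracellular matrix proteins and Slc22a6 (−3.58) an organic anion transporter. Oprk1 (−2.83), the kappa opioid receptor, is expressed in striatum as well as in deep cortex.

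Striatal genes formed the largest group among the genes lower in hippocampus. Of 18 tested markers of striatal projection neurons, 17 were called lower, none higher, and the median was −2.68; the exception was Lrrc10b (−0.26 ± 0.35). Their summed level was 3852, 1992, 2632 and 466 CPM in cortex 1 to 4 and 349, 412, 401 and 324 CPM in hippocampus 1 to 4. Cortex 1, 2 and 3 were thus far above every hippocampus library, and cortex 4 was near them. Adora2a (ENSMUSG00000020178, chromosome 10, 75316877 to 75334784, plus strand), the adenosine receptor of indirect-pathway neurons, stood at 82.7, 52.5, 63.7 and 3.85 CPM in cortex and 0.762, 1.06, 2.05 and 2.38 CPM in hippocampus (−5.48 ± 0.58, adjusted p = 0.000603, edgeR). Penk, the enkephalin precursor, was at 1145, 498, 546 and 50.1 CPM in cortex and 18.5, 18.1, 46.6 and 32.6 CPM in hippocampus (−4.35 ± 0.64, adjusted p = 0.00353), and Drd1, the dopamine D1 receptor, at 67.1, 45.8, 73.3 and 7.70 CPM and 8.83, 6.41, 11 and 9.53 CPM (−2.60 ± 0.40, adjusted p = 0.00468). Both receptors and Penk are hallmarks of striatum and are low in neocortex. Rgs9, the striatal regulator of G-protein signalling, differed by −4.16 (adjusted p = 0.00148). Tac1, the substance P precursor, was at 88.4, 39.5, 57.2 and 11.6 CPM in cortex and 3.30, 1.36, 8.56 and 1.59 CPM in hippocampus (adjusted p = 0.00268). Ppp1r1b, the dopamine-regulated phosphatase inhibitor DARPP-32 of striatal neurons, was at 717, 401, 572 and 127 CPM in cortex and 71.2, 147, 75.3 and 41.3 CPM in hippocampus (−2.44 ± 0.44, adjusted p = 0.0125). In 8 of the 17 genes every cortex library, cortex 4 included, was above every hippocampus library, though for Adora2a cortex 4 had 2 counts, under its limit, which leaves 7. In the other 9, Drd1 and Ppp1r1b among them, cortex 4 was not above. Leaving out 1 library at a time gave 13 to 19 called striatal genes.

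The 12 largest decreases of the whole comparison among genes of at least 5 CPM in cortex were led by Lhx8 and Adora2a and included 4 genes not described elsewhere here. Slc35d3, an orphan sugar transporter that striatal neurons express, stood at 21.3, 13.3, 16.3 and 0 CPM in cortex and 1.59, 0.151, 0.685 and 0 CPM in hippocampus (−4.23 ± 0.72, adjusted p = 0.00826). Nexn, the actin-binding protein nexilin, was at 65.4, 9.72, 29 and 3.85 CPM in cortex and 2.16, 1.81, 1.37 and 1.59 CPM in hippocampus (−3.98 ± 0.62, adjusted p = 0.00498), highest in cortex 1. Prg4, the lubricating proteoglycan lubricin, was at 29.7, 16.6, 9.31 and 3.85 CPM in cortex and 1.14, 0.528, 1.37 and 0 CPM in hippocampus (−4.28 ± 0.60, adjusted p = 0.00268). Irs4, an insulin receptor substrate, was at 20.3, 20.3, 0.940 and 3.85 CPM in cortex and 0.254, 0.453, 1.37 and 0 CPM in hippocampus (−4.78 ± 0.96, adjusted p = 0.0215), and it was not called without hippocampus 1 (−4.40, adjusted p 0.1 after rounding). Cortex 1 and 2 were high and cortex 3 low for Irs4, whereas Slc35d3 was high in cortex 1, 2 and 3 and at 0 in cortex 4.

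Lhx8, Slc5a7 and Chat, known from cholinergic neurons of the basal forebrain, were among the genes of largest decrease. Lhx8, a LIM homeobox gene that specifies such neurons, stood at 13.4, 15.4, 4.33 and 3.85 CPM in cortex and 0, 0.226, 0.685 and 0 CPM in hippocampus (−5.90 ± 0.82, adjusted p = 0.00268). Slc5a7, the choline transporter, was at 23, 20.9, 12.9 and 0 CPM in cortex and 1.91, 0.604, 1.37 and 0.794 CPM in hippocampus (−3.71 ± 0.59, adjusted p = 0.00544). Chat, choline acetyltransferase, was at 17.6, 12.8, 3.29 and 0 CPM in cortex and 0.127, 0.453, 2.74 and 0 CPM in hippocampus (−4.01 ± 0.93, adjusted p = 0.044), a call that was lost without cortex 1, cortex 2, hippocampus 1 or hippocampus 2 (adjusted p 0.128 to 0.165) and that DESeq2 did not make (adjusted p = 0.233). Lhx8, Slc5a7 and Chat were highest in cortex 1 and 2, and in cortex 4 none of the 3 was above the 5.99 CPM that 3 counts give. These 3 genes were named by the size of their fold change, on no list. Their part in the difference, like that of the striatal genes, cannot be told apart from the regions, since cortex 1 to 3 carried them. Cortex 4 held them at most weakly, with a striatal sum of 466 CPM.

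**Figure D2:**
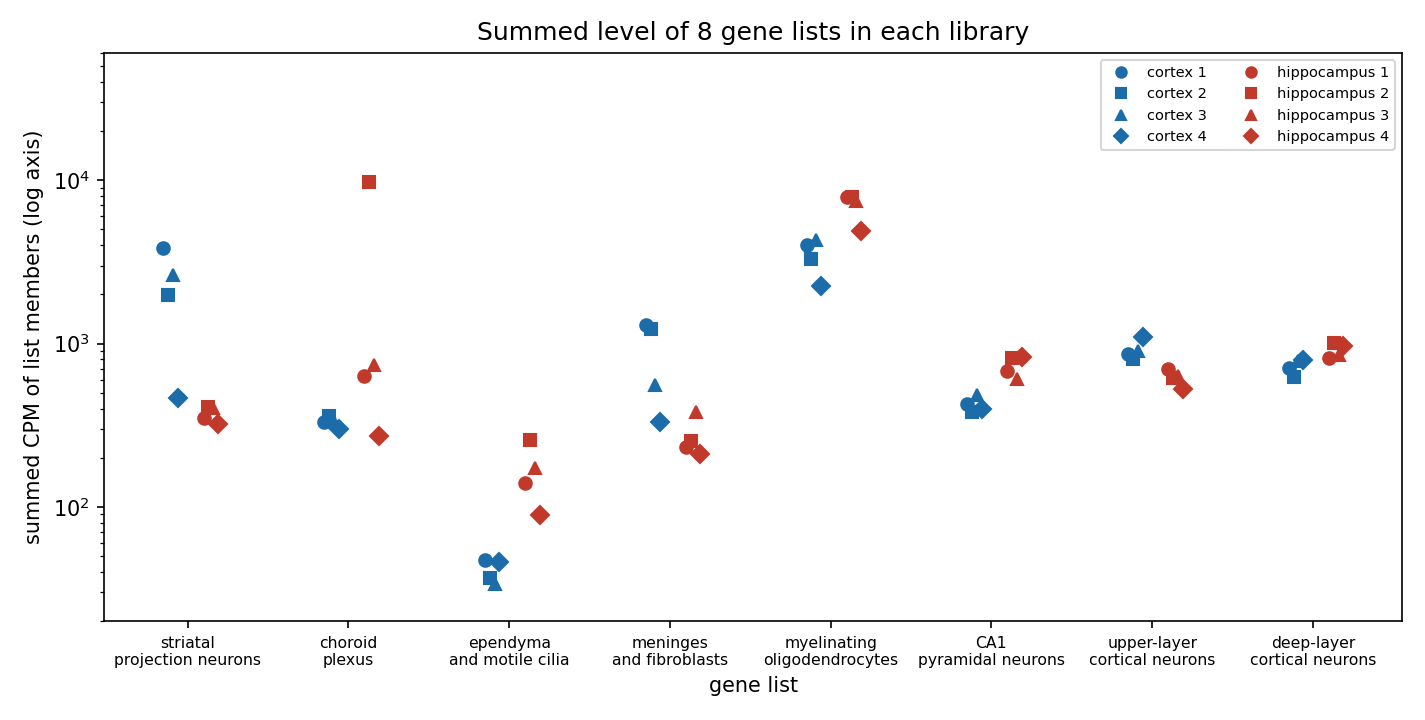
Summed CPM (log axis) of the members of 8 gene lists in each of the 8 libraries, with cortex in blue, hippocampus in red and 1 symbol per replicate number. The striatal sum was 1992 to 3852 CPM in cortex 1, 2 and 3 and 466.1 CPM in cortex 4; the choroid plexus sum was 9794 CPM in hippocampus 2 and at most 738.8 CPM elsewhere.

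Choroid plexus genes were among the largest changes in the other direction and rested mainly on 1 library. Of 13 tested markers 6 were called higher and none lower, with a median of 2.73. Their summed level was 331, 359, 332 and 298 CPM in cortex 1 to 4 and 629, 9794, 739 and 271 CPM in hippocampus 1 to 4, so that hippocampus 2 was far above all others, hippocampus 1 and 3 were moderately above the cortex libraries and hippocampus 4 was below every cortex library. Ttr, the thyroxine carrier transthyretin and most abundant transcript of this epithelium, stood at 18.8, 7.06, 13.8 and 46.2 CPM in cortex and 164, 5573, 222 and 22.2 CPM in hippocampus (6.55 ± 1.44, adjusted p = 0.0323, edgeR). Without hippocampus 2 its log2 fold change was 3.10 (adjusted p = 0.0422), and without cortex 2 or cortex 3 it was 6.16 to 6.42 and not called (adjusted p 0.107 to 0.131). Tmem72 (5.48), F5 (4.29), Kl (3.32), Enpp2 (2.36) and Calml4 (4.48) were the other 5 called, and in all 6 genes hippocampus 2 exceeded the next library more than 3 times. Without hippocampus 2, Ttr was the 1 choroid plexus gene called, and Calml4 and Tmem72 no longer had enough counts to be tested. The number was also 1 without cortex 2 or cortex 3, 3 without cortex 1 and 11 without hippocampus 4. DESeq2 called 1 of the 6, Calml4, with no adjusted p for Ttr, Tmem72, F5 and Kl and 0.114 for Enpp2. Tmem72 lost its call without cortex 1 or 4 (adjusted p 0.134 to 0.185), F5 and Kl without cortex 1, 2 or 3 or hippocampus 2 (0.104 to 0.187 and 0.1 to 0.168), and Enpp2 without any cortex library or hippocampus 2 (0.162 to 0.254).

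Ependymal and motile cilium genes, in contrast, had a higher sum in all 4 hippocampus libraries. Of 12 tested members all had a fold change above 0, 9 were called higher and the median was 2.62. In 8 of the 12 every hippocampus library was above every cortex library, as in 4.15% of all genes tested. In cortex 4, 12 of the 16 list members were at 0, and levels under 5.99 CPM, its 3 counts, were not measurable there. The summed level was 47.5, 36.5, 33.7 and 46.2 CPM in cortex 1 to 4 and 139.9, 256, 173 and 89 CPM in hippocampus 1 to 4, without overlap. Dnah12, an axonemal dynein, stood at 0.991, 1.28, 0 and 0 CPM in cortex and 11.4, 14.3, 12.3 and 15.5 CPM in hippocampus (4.29 ± 0.71, adjusted p = 0.00728), and Ak7, an adenylate kinase of cilia, at 0.495, 1.33, 1.03 and 0 CPM and 11.9, 12.6, 17.1 and 5.56 CPM (3.53 ± 0.47, adjusted p = 0.00263). Cfap126, a protein of the ciliary basal body, differed by 4.15 ± 0.56 (adjusted p = 0.00268). Foxj1, the master transcription factor of motile cilia, was at 3.96, 9.62, 4.23 and 0 CPM in cortex and 16.6, 40.4, 22.6 and 7.55 CPM in hippocampus (1.97 ± 0.50, adjusted p = 0.0649), and lost its call without cortex 1 or 3 or hippocampus 1, 2 or 3 (adjusted p 0.113 to 0.245). Several further cilium genes stood among the 12 largest increases of the whole comparison: Dnah3 (3.97), Drc7 (3.83), Cfap43 (3.83), Wdr63 (3.81) and Spag17 (3.54). The choroid plexus and ependymal sums ranked the hippocampus libraries 2, 3, 1 and 4 from high to low, and the part of ventricular tissue in either list was not tested.

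Most meningeal genes and some vascular genes were called lower in hippocampus. Of 11 tested genes of meninges and fibroblasts 7 were called lower and 1 higher, with a median of −1.94. The summed level was 1301, 1232, 554 and 333 CPM in cortex 1 to 4 and 231, 254, 383 and 212 CPM in hippocampus 1 to 4, and cortex 4 lay within the hippocampus range. Without cortex 1 or without cortex 2, 4 meningeal genes were called lower in place of 7. Ptgds, prostaglandin D synthase, secreted by the leptomeninges, was at 1091, 1038, 452 and 287 CPM in cortex and 174, 165, 303 and 113 CPM in hippocampus (−1.94 ± 0.39, adjusted p = 0.0222), and Col1a1, a chain of type I collagen, at 24, 25.4, 18.4 and 7.70 CPM and 3.94, 4.07, 5.48 and 3.18 CPM (−2.30 ± 0.32, adjusted p = 0.00268). The exception was the matrix proteoglycan decorin (Dcn), at 24.3, 19.1, 7.90 and 3.85 CPM in cortex and 23.1, 48.6, 43.1 and 85 CPM in hippocampus (1.68 ± 0.43, adjusted p = 0.068); it lost its call without cortex 2, 3 or 4 or hippocampus 2, 3 or 4 (adjusted p 0.104 to 0.18). Of 10 tested endothelial and mural genes 3 were called lower: Cdh5 (−1.54), the endothelial cadherin, Vtn (−1.37), vitronectin of pericytes, and Flt1 (−1.10), a receptor for vascular endothelial growth factor. Cdh5 was not called without cortex 2 (−1.32, adjusted p = 0.1, which rounds to the threshold), and Vtn and Flt1 were not called without any 1 of cortex 1, cortex 2, hippocampus 1 or hippocampus 2, nor Vtn without hippocampus 4 (adjusted p 0.11 to 0.226) nor Flt1 without hippocampus 3 (0.176 to 0.238). This left 1 vascular gene called without cortex 1, hippocampus 1 or hippocampus 2, and 0 without cortex 2. None of 4 tested blood genes and none of 9 tested genes of thalamus and habenula was called.

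Among the glial lists, calls were made for myelin genes and for a single precursor gene. Of 16 tested genes of myelinating oligodendrocytes 15 had a fold change above 0, 3 were called higher, and the median was 0.84. Their summed level was 4000, 3270, 4285 and 2238 CPM in cortex 1 to 4 and 7936, 7901, 7414 and 4857 CPM in hippocampus 1 to 4, with every hippocampus library above every cortex library. Mbp, myelin basic protein, stood at 1587, 1539, 1963 and 1054 CPM in cortex and 3685, 4146, 3662 and 2030 CPM in hippocampus (1.14 ± 0.24, adjusted p = 0.0254). Mobp (1.07) and Cldn11 (1.14), 2 further myelin proteins, were also called, and Mal (0.93, adjusted p = 0.0442) and Trf (0.80, adjusted p = 0.0271) passed the adjusted p but not the fold threshold. Without cortex 4 the folds of Mbp, Mobp and Cldn11 were 0.99, 0.92 and 0.98, just under the threshold, so that no myelin gene was called; Mobp and Cldn11 were also not called without cortex 2 or hippocampus 1 (adjusted p 0.0372 to 0.136 over these). The number of myelin genes called was 1 without cortex 2 or hippocampus 1, 5 without cortex 1, 6 without cortex 3 and 7 without hippocampus 4. Lhfpl3, a gene of oligodendrocyte precursors, was the 1 of 7 called, lower at −1.09 ± 0.28 (adjusted p = 0.0691), and was not called without any 1 of 6 libraries, all but cortex 3 and 4 (adjusted p 0.127 to 0.248). None of 11 astrocyte genes and none of 12 microglial genes was called, with medians of 0.11 and −0.16.

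**Figure D3:**
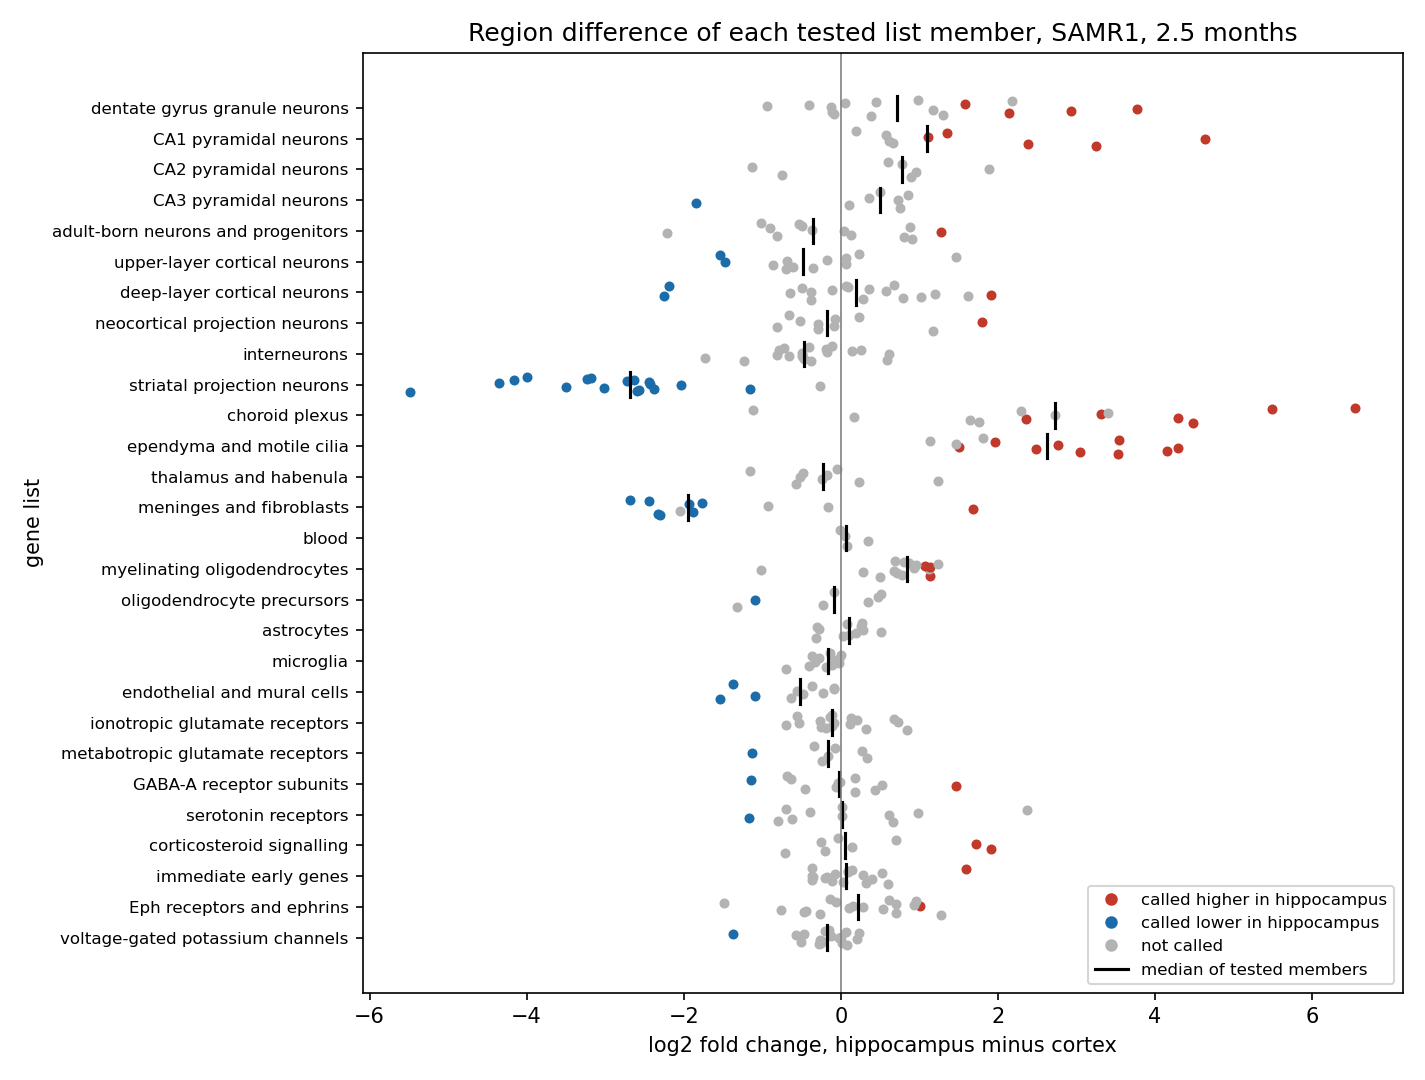
Log2 fold change, hippocampus minus cortex, of each tested member of the 28 lists, with red for genes called higher, blue for genes called lower and grey for genes not called; the black bar is the median of the tested members. Striatal genes form the band at the left (median −2.68) and choroid plexus and ependymal genes the bands at the right (medians 2.73 and 2.62), while the medians of the neuron lists lie between −0.48 and 1.10.

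The called genes were also read in the libraries with the lowest sums of the neighbouring tissues, which were not free of them: the ependymal sum of hippocampus 4 was above every cortex library, and the striatal sum of cortex 4 above every hippocampus library. Hippocampus 4 had the lowest choroid plexus, ependymal and meningeal sums of the hippocampus libraries, and 158 of the 177 genes called higher were above every cortex library in it. All 10 called members of the hippocampal neuron lists were among these 158, against 1 of 6 called choroid plexus genes and 8 of 9 ependymal genes. Cortex 4 had the lowest striatal and meningeal sums of the cortex libraries, and in it 116 of the 167 genes called lower were above every hippocampus library, 88 of them above the level of 3 counts. These 88 included Foxp2, Syt6, Stard8 and Otof, the 4 called lower from the cortical neuron lists, as well as Kcnh5 and Htr2a, against 7 of 17 striatal and 2 of 7 meningeal genes. Of the 51 genes that were not above, 17 were at 0 in cortex 4, whose depth limits this comparison. These are descriptions of single libraries that the calls already used, and no test. The share of all genes tested with the same order in these libraries was not counted. Nothing is therefore read from the size of these numbers.

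Leaving out each library in turn left 135 genes called every time, 75 higher and 60 lower. They included 3 of the 4 dentate gyrus genes called (Prox1, Dsp and Lct), Fibcd1 and Gpr161 of CA1, Stard8, Foxp2, Syt6, Hsd11b1, Nr3c2, Gabra5, Coch and Kcnh5. Also among them were 13 of 17 striatal, 6 of 9 ependymal and 4 of 8 meningeal genes, and none of the 6 choroid plexus genes, 3 myelin genes or 3 vascular genes. The 2 lowest numbers of calls were 207 without cortex 2 and 217 without hippocampus 1.

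**Figure D4:**
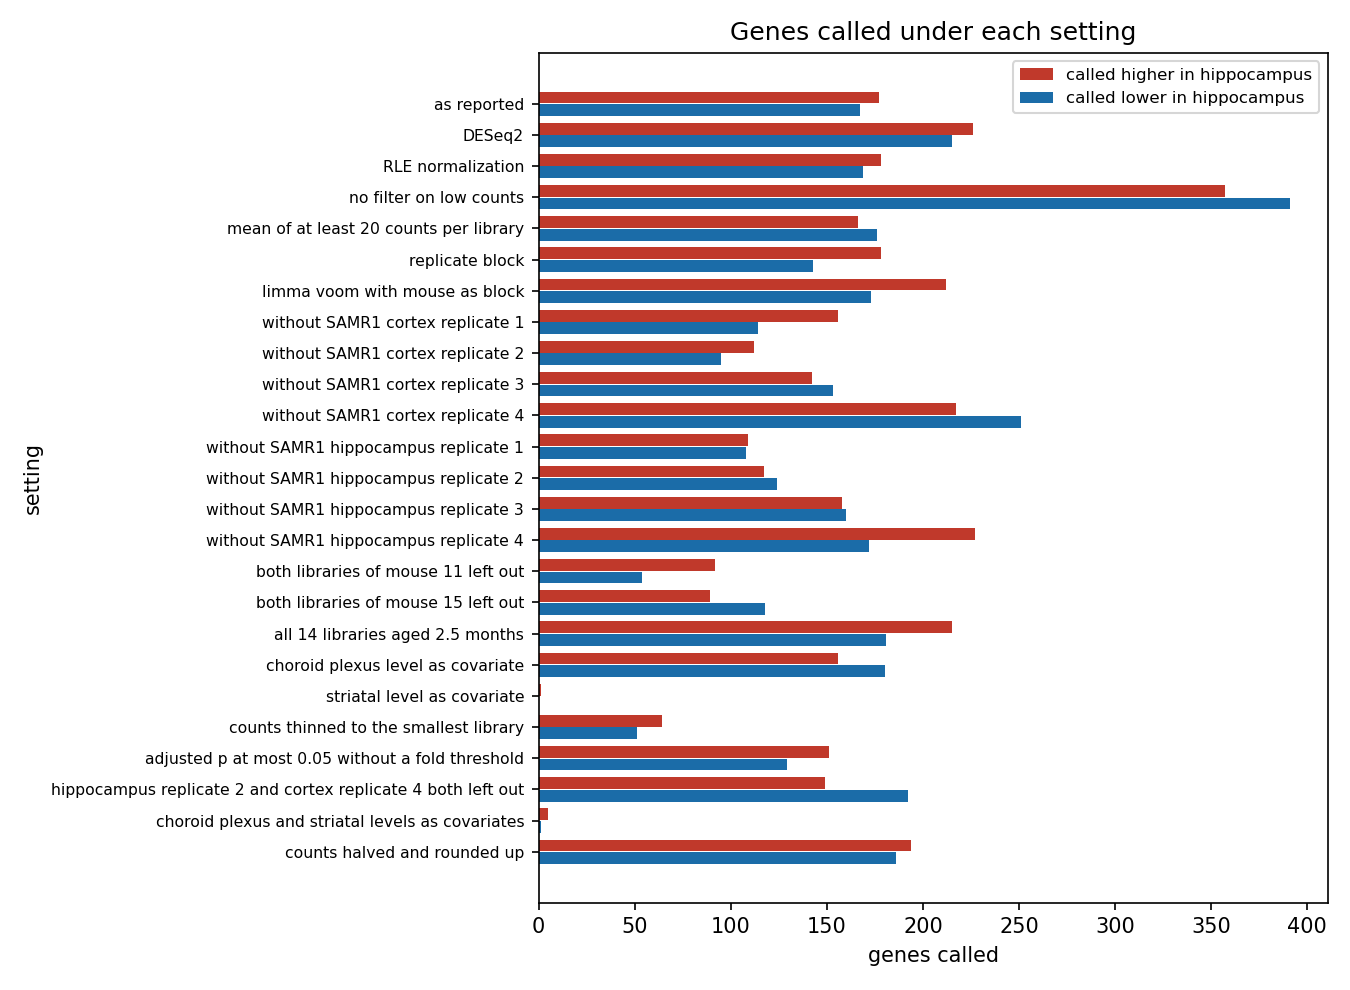
Number of genes called higher (red) and lower (blue) in hippocampus under each setting, with the setting on the vertical axis and the number of genes on the horizontal axis. Leaving out single libraries gave 207 to 468 calls in all, and the 2 settings with the striatal level as a covariate gave 1 and 6.

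With the mean log2 level of the choroid plexus list as a covariate, 336 genes were called, of which 256 were among the 344. With the mean log2 level of the striatal list as a covariate, 1 gene was called, Cabp7. That level separated the regions in all libraries except cortex 4, so such a fit compares the regions almost from cortex 4 alone, and 320 of the 344 genes kept their sign in it. It also moved the median log2 fold change of all genes to 0.146.

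The same contrast could be set against the SAMP8 strain at the same age, which shares no library with it but has 3 cortex libraries, 1 of them with only 28861 counts, and 3 hippocampus libraries. Of the 177 genes higher in SAMR1 hippocampus 176 had the same sign in SAMP8 and 86 were called there, with median log2 fold changes of 1.96 in SAMR1 and 1.95 in SAMP8. Of the 166 lower genes with a SAMP8 value, 153 had the same sign and 27 were called, with medians of −1.88 and −1.03. In SAMP8, 1.15% of genes were called higher and 0.494% lower. The share of all genes tested with the same sign in both strains was not counted. Nothing is therefore read from the size of the sign counts. Cabp7 (3.05 in SAMP8, adjusted p = 3.63e-05, edgeR), Nr3c2 (1.51, adjusted p = 0.0249), Gabra5 (1.65, adjusted p = 0.0265), Prox1 (1.64, adjusted p = 0.0242), Foxp2 (−1.69, adjusted p = 0.0487) and Kcnh5 (−1.90, adjusted p = 0.00417) were called the same way in both strains. Other region genes described above kept their sign but were not called in SAMP8. Among them were Hsd11b1 (1.14, adjusted p = 0.264), Syt6 (−1.53, adjusted p = 0.156), Kit (0.979, adjusted p = 0.137) and Prkch (−0.776, adjusted p = 0.568). The median of the striatal list was −2.68 in SAMR1 and −1.04 in SAMP8, with 17 and 1 members called, and that of the choroid plexus list 2.73 and 5.34, with 6 called in each. The difference between strains was tested for every gene by the interaction of strain and region, and edgeR called 0 of 15190 genes (0%), while 642 had an unadjusted p under 0.05, and DESeq2 also called 0. With no filter on low counts edgeR called 81 genes, and their share of all genes in that fit was not counted. They held 9 genes of the striatal list, among them Adora2a, Penk, Rgs9 and Ppp1r1b. Also called were 6 of the choroid plexus list, among them Ttr, Kl, F5 and Tmem72. The other list members called were Calb2, Sst, Dsp and Sulf1. All of these list members had a more positive difference in SAMP8, while genes on no list went both ways. Nothing is read from these calls about the strains, as 1 SAMP8 cortex library had 28861 counts.

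**Figure D5:**
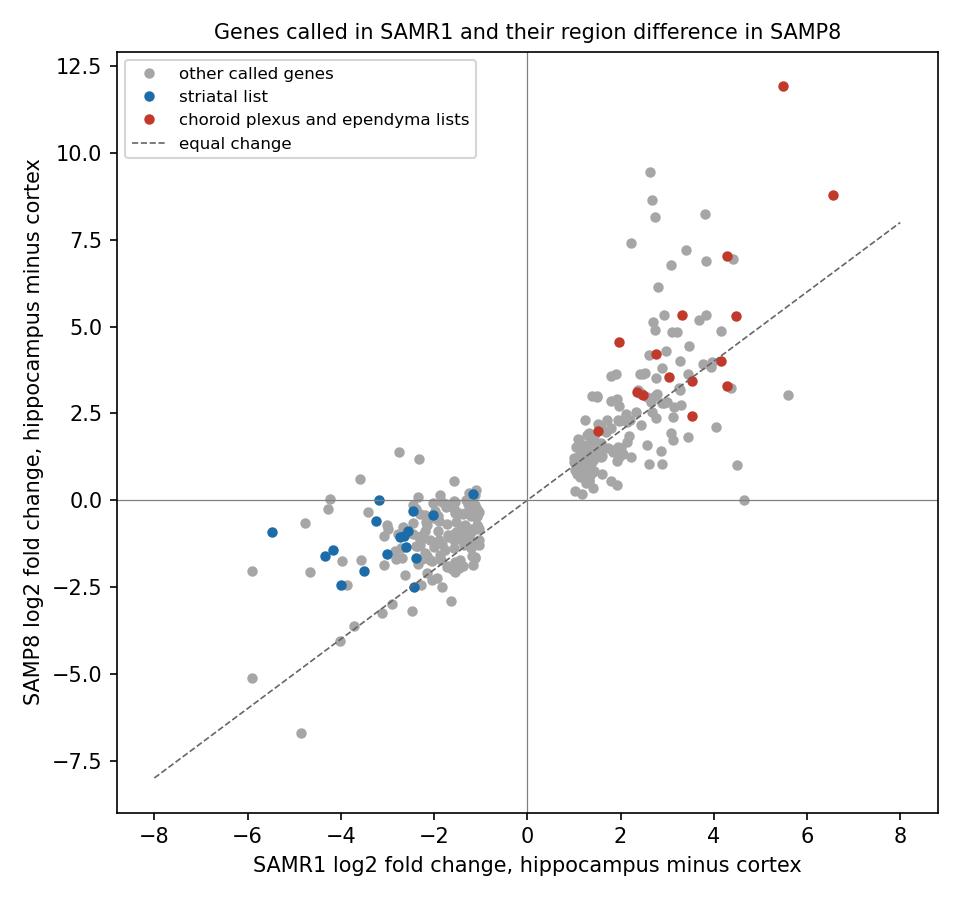
Log2 fold change, hippocampus minus cortex, in SAMR1 (horizontal axis) and SAMP8 (vertical axis) for the genes called in SAMR1, with the striatal list in blue, the choroid plexus and ependymal lists in red and other genes in grey; the dashed line marks equal change. Genes higher in SAMR1 hippocampus had the same sign in SAMP8 in 176 of 177 cases, and the striatal genes lie mostly above the line. The share of same signs over all genes tested was not counted. The genes were chosen by their call in SAMR1, which favours smaller values in SAMP8.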

How the data were processed

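Total RNA from one hemisphere of each mouse was depleted of ribosomal RNA and sequenced. The authors aligned the reads with STAR to GRCm38 with GENCODE annotation, removed duplicates by unique molecular identifiers and deposited forward-stranded featureCounts counts per gene; versions of these tools were not found in the labels or methods. The table holds 55359 genes, of which 52083 matched a symbol.

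The 8 libraries were fitted with edgeR 4.0.16 in R 4.3.3 (filterByExpr, TMM factors, glmQLFit and glmQLFTest on region). This kept 15390 genes. The standard error is the fold change divided by the square root of the F statistic, and adjusted p-values are Benjamini-Hochberg over all genes tested. CPM values use TMM library sizes. The strain comparison fitted strain, region and their interaction to 14 libraries. Voom with mouse as a block used limma 3.58.1 and called 385 genes, 301 of them among the 344 of the main fit. The correlation within mouse in the voom fit was −0.0714. DESeq2 1.42.0 was an alternative tool.

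The libraries and the 28 gene lists (361 distinct genes, of which 339 were tested) were chosen with earlier results of these data known. Genes were named by rule: the 12 largest folds in each direction with a symbol and at least 5 CPM, up to 5 members of each list and 8 genes outside lists in each direction by smallest p, and 8 genes of the interaction; a part of these is printed, and some genes are not reported here. Enpp2, Drd1, Ppp1r1b, Lrrc10b, Dcn, Foxj1, C1ql2, Wfs1, Cux2, Rorb, Fezf2, Nr3c1, Cdhr1 and Eomes were named after their values were seen.

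Depth was 500986 to 22342090 counts, and a count of 0 allows up to 3 counts, for counting error only, or 6 counts if 1 fragment gave 2 counts. Replicate numbers did not pair the libraries: deviations from the region means correlated at −0.141 to 0.223 between libraries of the same number, and at −0.0879 and 0.0963 between libraries of the same mouse. No 2 libraries were duplicates. Promoter sequences are from RefSeq (GRCm38.p6), which had one for 252 of the 339 list genes tested.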

Additional observations from a re-analysis of the deposited data

Results flagged for a closer look

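In 25 of 246 groups of 4 libraries examined (named genes, list sums and the mitochondrial share), 1 library stood apart by Dixon's ratio. The ratio is the gap to the nearest library over the range of the group, here above its 95% critical value. That value allows about 1 in 20 by chance, for independent values with a normal spread. These groups share genes, and some genes were named by their fold or after their values were seen. The 25 is therefore not compared with a chance rate.

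Hippocampus 2 was the highest hippocampus library for the choroid plexus sum (9794 CPM against 738.8 CPM in the next, ratio 0.951) and for Ttr (5573 against 222.5 CPM, 0.964), F5 (163.1 against 10.96 CPM, 0.954), Kl (191 against 26.7 CPM, 0.934), Enpp2 (2759 against 371.1 CPM, 0.932), Tmem72 (207.6 against 14.38 CPM, 0.931) and the cilium gene Drc7 (71.37 against 14.38 CPM, 0.836). It was also highest for Cabp7 (150.1 against 132.7 CPM, 0.892).

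Hippocampus 4 was the highest for the summed immediate early genes (1801 against 895.2 CPM, 0.841), corticosteroid signalling genes (614.4 against 487.8 CPM, 0.93) and Eph receptors and ephrins (1881 against 1421 CPM, 0.86). The same library was highest for Epha4 (530.2 against 378.8 CPM, 0.84), Shisa6 (182.3 against 93.84 CPM, 0.832), Flt1 (21.45 against 11.47 CPM, 0.893), Htr2a (19.86 against 15.77 CPM, 0.852) and Abi3bp (7.149 against 4.98 CPM, 0.885). It was the lowest for the sums of myelin genes (4857 against 7414 CPM, 0.83) and oligodendrocyte precursor genes (205.3 against 298.2 CPM, 0.832). The immediate early gene sum was also high in cortex 4 (1880 against 942.4 CPM in the next cortex library), though not flagged by the ratio.

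Hippocampus 3 was lowest for Pou3f1 (20.2 against 47.49 CPM, 0.895) and Prkch (1.369 against 2.286 CPM, 0.878), and highest for Chat (2.739 against 0.4527 CPM, 0.835). Among cortex libraries, cortex 3 was highest for Pou3f1 (25.53 against 12.88 CPM, 0.906), cortex 1 for the mitochondrial share (5.72% against 3.36%, 0.846), and cortex 2 for Cdhr1 (124.9 against 19.32 CPM, 0.888) and Eomes (27.02 against 3.852 CPM, 0.866).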

How the results depend on the processing

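Of 344 genes called, 331 were also called by DESeq2 (441 in all) and 289 with the replicate block (321 in all), where the replicate numbers do not pair the libraries and 1 of 4 numbers matched best. Some settings moved the number by over 1.5 times. Among omissions these were cortex 2 (207), hippocampus 1 (217), both libraries of mouse 11 (146) and both libraries of mouse 15 (207). The others were no filter on low counts (748), counts thinned to the smallest library (115), the striatal level as a covariate (1) and both list levels as covariates (6). The striatal level in the 2 covariate fits was 5.73 to 6.57 (mean log2 CPM) in cortex 1 to 3. It was 2.85 in cortex 4 and 2.42 to 3.52 in the hippocampus libraries. The other settings differed in samples, genes or counts. The cause of the moved numbers was not tested for any of these settings. Leaving out 1 library gave 207 (without cortex 2) to 468 (without cortex 4) genes, and 217 without hippocampus 1. The 72 list members called became 48 to 80 with 1 library left out, 39 without mouse 11, 29 with thinning, 0 with the striatal covariate, where 1 gene of all passed, and 1 with both covariates.

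For the interaction with strain, 81 genes were called with no filter. Among them were 9 striatal, 6 choroid plexus, 2 interneuron, 1 dentate gyrus and 1 deep-layer list members. With 1 library left out 0 to 2 were called, and the 2, without SAMR1 cortex 3, were Agt and Trpc6. The mitochondrial difference ranged from −0.74 to 0.19 percentage points with 1 library left out. Some genes called in the main fit changed sign under covariates, and none of them was called there. With the striatal level the folds were Slc35d3 0.41, Chat 1.18, Slc6a13 0.11 and Ranbp3l 0.76. With both levels they were Slc35d3 1.01, Chat 0.62, Nexn 0.17, Kl −0.16 and Ranbp3l 0.69. Over 185 named genes and all settings, 3686 values stayed on the same side of the threshold. Another 364 kept direction but lost the call, and 58 gained one. The 9 that changed sign count only genes called in the main fit or in that setting. Sign changes of genes called in neither are among the 3686. The combined covariates, the joint omission of hippocampus 2 and cortex 4 (341 called, 249 shared) and halved counts (380 called, 300 shared) were chosen after seeing the data. Depth limits cortex 4 most, where a count of 0 allows up to 5.99 CPM, or 12 CPM if 1 fragment gave 2 counts.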

Other observations

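Cortex 2 stood apart from the other cortex libraries in 2 genes. Cdhr1, a cadherin-related protein of photoreceptors and of olfactory bulb mitral cells, stood at 19.3, 124.9, 5.97 and 7.70 CPM in cortex 1 to 4 and at 2.92, 6.87, 4.11 and 0.794 CPM in hippocampus 1 to 4. It was called lower in hippocampus (−3.42 ± 0.83, adjusted p = 0.0536, edgeR), and not without cortex 2 or hippocampus 1, 3 or 4 (adjusted p 0.107 to 0.342, with the log2 fold change from −1.53). Eomes, a T-box factor of intermediate progenitors that mitral cells also express, was at 0.991, 27.02, 0.282 and 3.85 CPM in cortex and at 1.52, 2.57, 2.74 and 0.794 CPM in hippocampus, and was not called (−2.21 ± 1.00, adjusted p = 0.446). Dcx was highest in the same cortex library.

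Low counts in the table were mostly even. Of the values from 1 to 20, 74.9% to 92.5% were even in the cortex libraries and 78.7% to 88.6% in the hippocampus libraries, and the reason was not tested. With all counts halved and rounded up, 380 genes were called.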
